A study of Homo sapiens with 28 samples.

Results

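Polycomb repressive complex 2 (PRC2) is the enzyme complex that trimethylates lysine 27 of histone H3 (H3K27me3). The genes described here are 9 that encode PRC2 subunits (Ezh2, Ezh1, Eed, Suz12, Rbbp7, Jarid2, Aebp2, Mtf2 and Phf19) and Kdm6b, which encodes a demethylase that removes the same mark. They were listed by name, though with earlier results of these data known, and are 10 of the 21887 mouse genes with an interval in the annotation. For each gene and each mouse, the values are the width and position of the H3K27ac and H3K27me3 peaks over the gene interval plus 5 kb on either side.

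The data are chromatin immunoprecipitation sequencing of both marks in bone marrow of C57BL/6 mice, with 1 library per mouse and mark. All 8 mice carry the floxed alleles Ezh2(fl/fl) and Runx1(fl/fl). The 3 WT mice (WT1, WT2 and WT3) have no Cre, as Rag1(+/+), and an intact receptor gene, as Flt3(+/+). The 5 DKOITD mice are Rag1(Cre/+), with Cre made from the Rag1 locus, and Flt3(ITD/+), with an internal tandem duplication in 1 allele of Flt3. Values of the 5 are given throughout in the order DKOITD48, DKOITD52, DKOITD53e, DKOITD83 and DKOITD185. CD117 beads were used to enrich WT marrow for cells that express Kit, whereas marrow from DKOITD mice was taken whole. Genotype, preparation and any leukaemia in the DKOITD mice therefore cannot be told apart in any comparison below. The input used for peak calling, from WT1 or from DKOITD48, also follows genotype and cannot be told apart from it. H3K27ac on Y-linked genes, given with Rbbp7, differed between the WT mice and all DKOITD mice but DKOITD83, and sex was not separated from genotype. Rag1 is expressed in developing lymphoid cells, so cells of other lineages in whole marrow need not have recombined the floxed alleles. In bulk marrow, fewer cells that carry a mark and less of the mark per cell cannot be told apart.

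EZH2 and EZH1 are the alternative catalytic subunits of PRC2, and they act only in a complex with EED and SUZ12, to which the histone-binding proteins RBBP4 or RBBP7 attach. JARID2 with AEBP2, or one of the Polycomb-like proteins PHF1, MTF2 and PHF19, join this core in separate forms of the complex and help to bring it to CpG-rich promoters. Silenced developmental genes carry broad H3K27me3 in blood progenitors, while H3K27ac, which occupies the same lysine, lies at active promoters and enhancers. Loss of EZH2 function is a recurrent event in myeloid malignancies and in early T-cell precursor leukaemia.

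Libraries held 6515614 to 11458360 fragments for H3K27ac and 2766339 to 6411696 for H3K27me3 after the authors' duplicate removal, and every WT H3K27ac library was smaller than any DKOITD one. The peaks of DKOITD48, DKOITD53e and DKOITD83 covered far less of the genome than those of the other 5 mice, 7.03 to 13.1 Mb against 16.8 to 29.7 Mb for H3K27ac and 3.17 to 5.24 Mb against 13.8 to 40.5 Mb for H3K27me3. Covered lengths are therefore given for each mouse, and the differences at the 10 genes are also given without these 3 mice. The Ezh2 peak found in all 8 mice lies at an end of the gene, and the annotation used gives no exons, so the peaks do not check whether the floxed part was deleted. Of 8 stem and progenitor markers, 5 to 7 carried H3K27ac in WT mice and 1 to 3 in DKOITD mice, with a summed covered length of 8.03 to 17.0 kb and 0.256 to 4.61 kb. Kit itself had a peak in all 3 WT mice and, of the DKOITD mice, in DKOITD48 only. Of 9 granulocyte and monocyte markers, 7 to 9 carried H3K27ac in WT mice and 1 to 6 in DKOITD mice (summed 25.5 to 44.8 kb and 0.737 to 13.1 kb). Csf1r alone of these was higher in the DKOITD mean, with H3K27ac in 1 WT mouse and all 5 DKOITD mice. Its mean was 0.36 and 2.03 kb, and the groups overlapped (limma adjusted p = 0.201). Of 8 erythroid markers, 5 to 6 carried H3K27ac in WT mice and 2 to 4 in DKOITD mice (4.94 to 12.1 kb and 1.41 to 4.65 kb). Dendritic cell markers as a list went the other way, with 3 to 5 of 6 in WT mice and 5 or 6 in DKOITD mice (5.52 to 11.2 kb and 13.2 to 35.9 kb). Only H2-Ab1 and Cd74 of these separated the groups, with differences of 5.65 and 4.81 kb. Groups overlapped at Batf3, Flt3 and Xcr1 (1.03, 2.83 and 0.0067 kb), and Siglech had a peak in DKOITD185 only. B lineage markers carried H3K27ac at 3 to 6 of 6 genes in WT mice and at 2 or 3 in DKOITD mice (4.00 to 14.7 kb and 1.16 to 6.72 kb). T lineage markers carried it at 3 of 6 in each WT mouse and at 2 or 3 in DKOITD mice (3.26 to 5.93 kb and 1.36 to 2.80 kb). The erythroid genes Gata1 and Slc4a1 and the T lineage genes Cd3e, Bcl11b and Tcf7 had no H3K27ac peak in any mouse. None of 5 mast cell and basophil markers had a peak in any mouse. The part of this cell makeup in the results below was not tested.

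All 10 genes carried H3K27ac (at least 200 bp covered) in every one of the 8 mice, where 36.9% of all genes did. For H3K27me3, 6 of the 10 had no peak in any mouse, near the share over all genes (61.6%), and only Jarid2 had one in all 8 (5.95% of all genes). H3K27ac covered less of each of the 10 genes in the DKOITD mean than in the WT mean, at 50.2% (Mtf2) to 90.4% (Aebp2) of the WT value, with a median of 75.7%. Over the 8117 genes covered in all 8 libraries the median was 75.6% (quartiles 60.3% and 91.6%), and 78.6% of the 11980 genes tested had a lower DKOITD mean. The genes as a group thus sat at the middle of the whole distribution.

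Leaving out DKOITD48, DKOITD53e and DKOITD83 brought most of these differences closer to 0. The difference in covered length then went from −0.57 to −0.30 kb at Ezh2, from −0.17 to −0.073 kb at Ezh1, from −0.28 to −0.030 kb at Eed and from −0.48 to −0.29 kb at Suz12. It went from −0.49 to −0.16 kb at Rbbp7, from −2.44 to −1.25 kb at Jarid2, from −0.62 to −0.23 kb at Mtf2 and from −4.39 to −2.54 kb at Kdm6b, and at Aebp2 and Phf19 it turned positive, to 0.22 and 1.47 kb. None of the 10 was called in that fit either.

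None of the 10 genes passed the test of covered length (limma, Benjamini-Hochberg adjusted p under 0.05 over all genes tested), where 5.78% of the 11980 genes did, 646 lower and 46 higher in DKOITD mice. At an unadjusted p under 0.05 the test called 1 of the 10, Mtf2, and 24% of all genes. In 4 of the 10 (Ezh1, Suz12, Mtf2 and Kdm6b) every WT mouse had a longer covered length than every DKOITD mouse. Groups separated in that direction at 15.5% of the genes tested, and at 14.3% of those covered in all 8 libraries. None separated the other way, as 1.79% of the genes tested did. None lost H3K27ac, with a mark in every WT and no DKOITD mouse (0.599% of all genes), or gained it in the opposite way (0.361%).

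**Figure D1:**
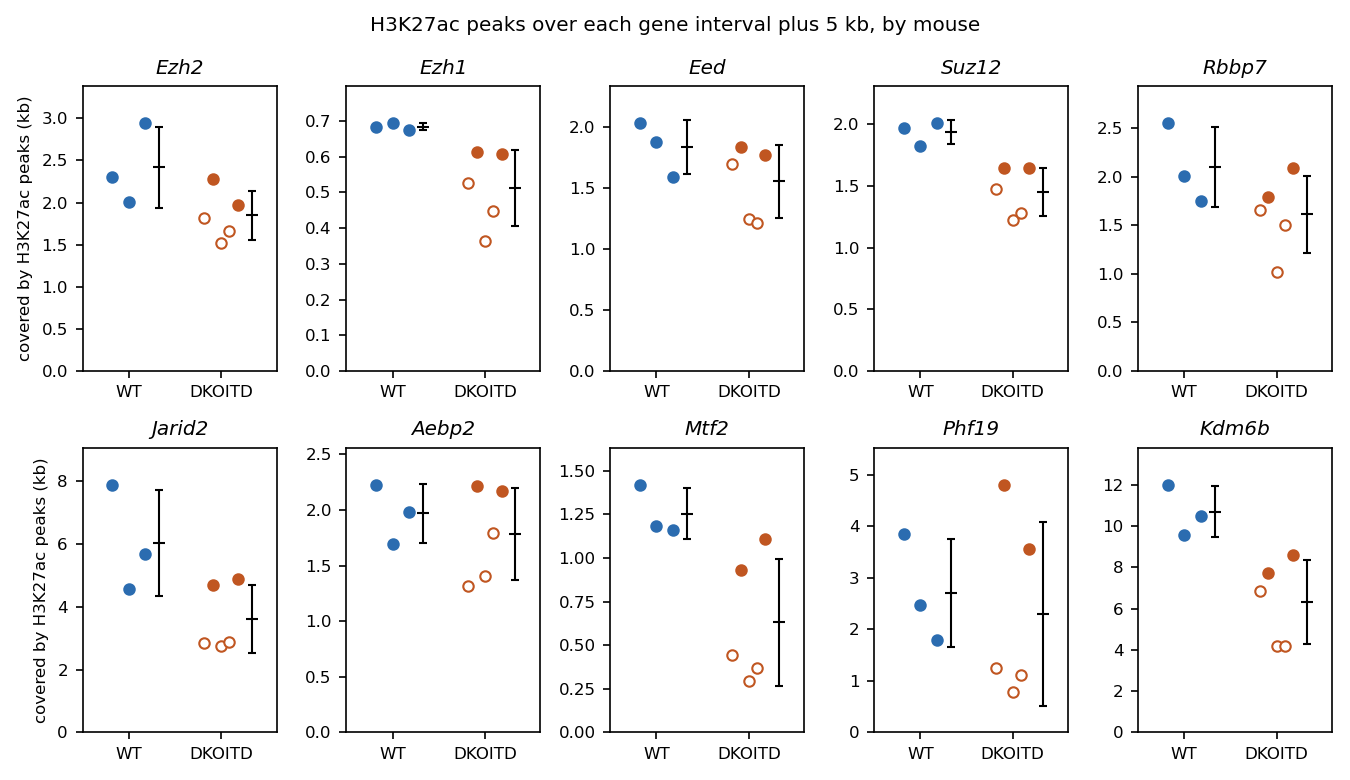
Length of each gene's window (interval plus 5 kb either side) covered by H3K27ac peaks, in kb, with 1 point per mouse (3 WT, blue, in the order WT1 to WT3; 5 DKOITD, orange, in the order DKOITD48, DKOITD52, DKOITD53e, DKOITD83, DKOITD185) and the mean with its SD as a bar. Open points are DKOITD48, DKOITD53e and DKOITD83, the libraries with the least peak territory; the groups do not overlap for Ezh1, Suz12, Mtf2 and Kdm6b.

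**Figure D2:**
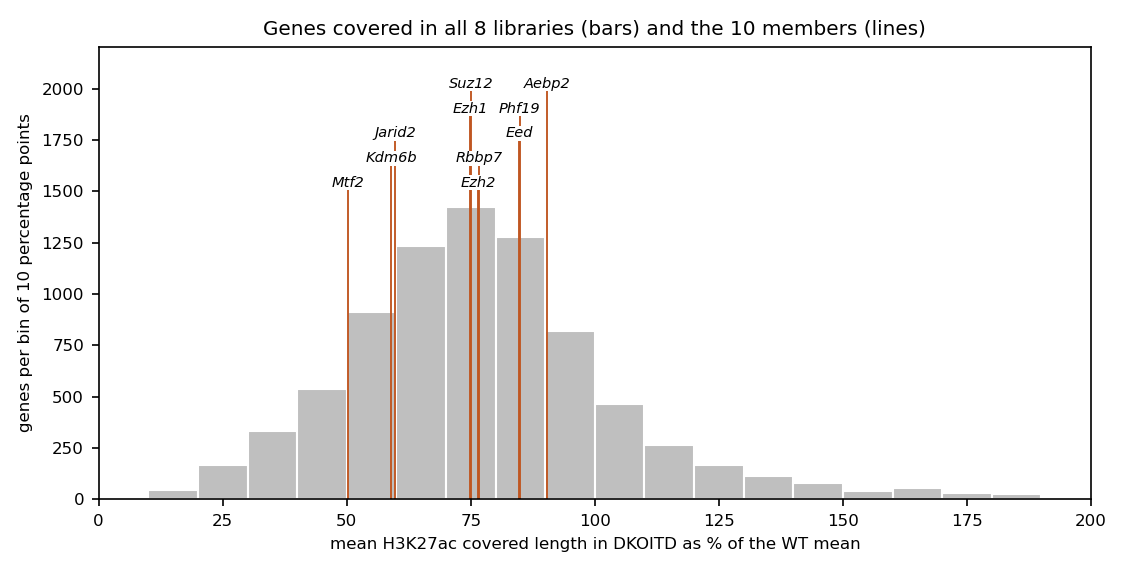
Mean H3K27ac covered length in DKOITD mice as a percentage of the WT mean, as a histogram of the 8117 genes covered in all 8 libraries (bins of 10 percentage points; 121 genes above 200% not drawn) with an orange line for each of the 10 genes. The lines run from 50.2% for Mtf2 to 90.4% for Aebp2, on both sides of the median of all genes at 75.6%.

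Of the catalytic subunits, Ezh2 (mm10 chromosome 6, 47530274 to 47595270) held 1 H3K27ac peak at its higher-coordinate end in all 8 mice. That peak began 63.4 to 64.0 kb from the lower-coordinate end of the gene and ended 0.514 to 0.829 kb beyond the higher one, over the end it shares with the noncoding gene F830010H11Rik. Its width was 2.31, 2.01 and 2.12 kb in WT1, WT2 and WT3, and 1.82, 2.28, 1.52, 1.66 and 1.97 kb in the 5 DKOITD mice. The widest DKOITD peak was close to the widest WT peak, so the groups overlapped, and the 3 narrowest were those of the mice with the least territory. WT3 had a further 0.82 kb peak 47.1 to 47.9 kb from the lower end, which no other mouse had. With it, the covered length was 2.42 ± 0.48 kb (SD, n = 3) in WT and 1.85 ± 0.29 kb (n = 5) in DKOITD mice, a difference of −0.57 ± 0.36 kb (SE; limma adjusted p = 0.342). By the authors' fold enrichment, the main peak stood within the highest 2.199% to 2.32% of its list in each WT mouse. In DKOITD mice it stood within the highest 5.67% to 29.3%. This was not particular to Ezh2. The widest peaks of Eed, Jarid2 and Mtf2 also ranked lower in every DKOITD mouse than in every WT mouse. That of Kdm6b ranked higher, and ranks overlapped at the other genes. The lists differ in length and their input follows genotype. The share of all peaks whose ranks separated in this way was not tested. Ezh2 had no H3K27me3 peak in any mouse.

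Ezh1 (chromosome 11, 101191115 to 101226463), the catalytic subunit of resting and differentiated cells, held the narrowest H3K27ac peak of the group apart from Mtf2 in its lowest mice. It lay at the higher-coordinate end and covered 0.682, 0.694 and 0.676 kb in WT1 to WT3, against 0.526, 0.614, 0.364, 0.449 and 0.609 kb in the 5 DKOITD mice. All 3 WT mice were within 0.02 kb of each other and above every DKOITD mouse. The difference was −0.17 ± 0.14 kb (adjusted p = 0.453), and it turned to 0.06 kb when only peaks with a −log10 q of at least 5 were kept. H3K27me3 was called only in WT3, as 2 peaks of 0.264 and 0.489 kb that lay 2.71 and 4.30 kb beyond the same end.

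The core subunits Eed (chromosome 7, 89954654 to 89980976) and Suz12 (chromosome 11, 79993106 to 80034123) each held a single H3K27ac peak over 1 gene end and no H3K27me3 in any mouse. EED is the subunit that reads existing H3K27me3, and SUZ12 is the scaffold on which the accessory subunits assemble. At Eed the peak covered 2.03, 1.88 and 1.59 kb in WT1 to WT3 and 1.70, 1.83, 1.25, 1.21 and 1.77 kb in the 5 DKOITD mice. These ranges overlapped, and the difference was −0.28 ± 0.29 kb (adjusted p = 0.556).

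At Suz12 the peak covered 1.97, 1.83 and 2.01 kb in WT1 to WT3. It covered 1.47, 1.64, 1.22, 1.28 and 1.64 kb in the 5 DKOITD mice, so every DKOITD mouse was below every WT mouse, those with large peak territory included. The midpoint moved by no more than 0.172 kb across the 8 mice, and the edge inside the gene lay 0.961 to 1.13 kb from the gene end in WT mice and 0.672 to 0.876 kb in DKOITD mice. The difference of −0.48 ± 0.26 kb did not pass the test (adjusted p = 0.278).

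Rbbp7 lies on chromosome X (162760372 to 162779090) and encodes a WD40 protein that binds histones and serves several other chromatin complexes too. Its H3K27ac peak at the lower-coordinate end covered 2.55, 2.01 and 1.75 kb in WT1 to WT3 and 1.66, 1.79, 1.02, 1.502 and 2.09 kb in the 5 DKOITD mice. The groups overlapped (difference −0.49 ± 0.35 kb, adjusted p = 0.389). H3K27me3 covered 1.97 kb of the window in WT1 and 0.313 kb in WT3, and nothing in WT2 or any DKOITD mouse. In WT1 this was a 1.73 kb peak from 9.92 kb inside the gene and a 0.239 kb peak past its end, within the interval of Txlng. Chromosome X as a whole held 2.25% to 5.15% of the H3K27me3 territory in WT mice and 0.451% to 1.32% in DKOITD mice. H3K27ac was on 0 of 4 Y-linked genes examined in each WT mouse and in DKOITD83, and on 3 or 4 in the remaining mice. The part of these chromosome-wide values in the Rbbp7 peaks was not tested.

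**Figure D3:**
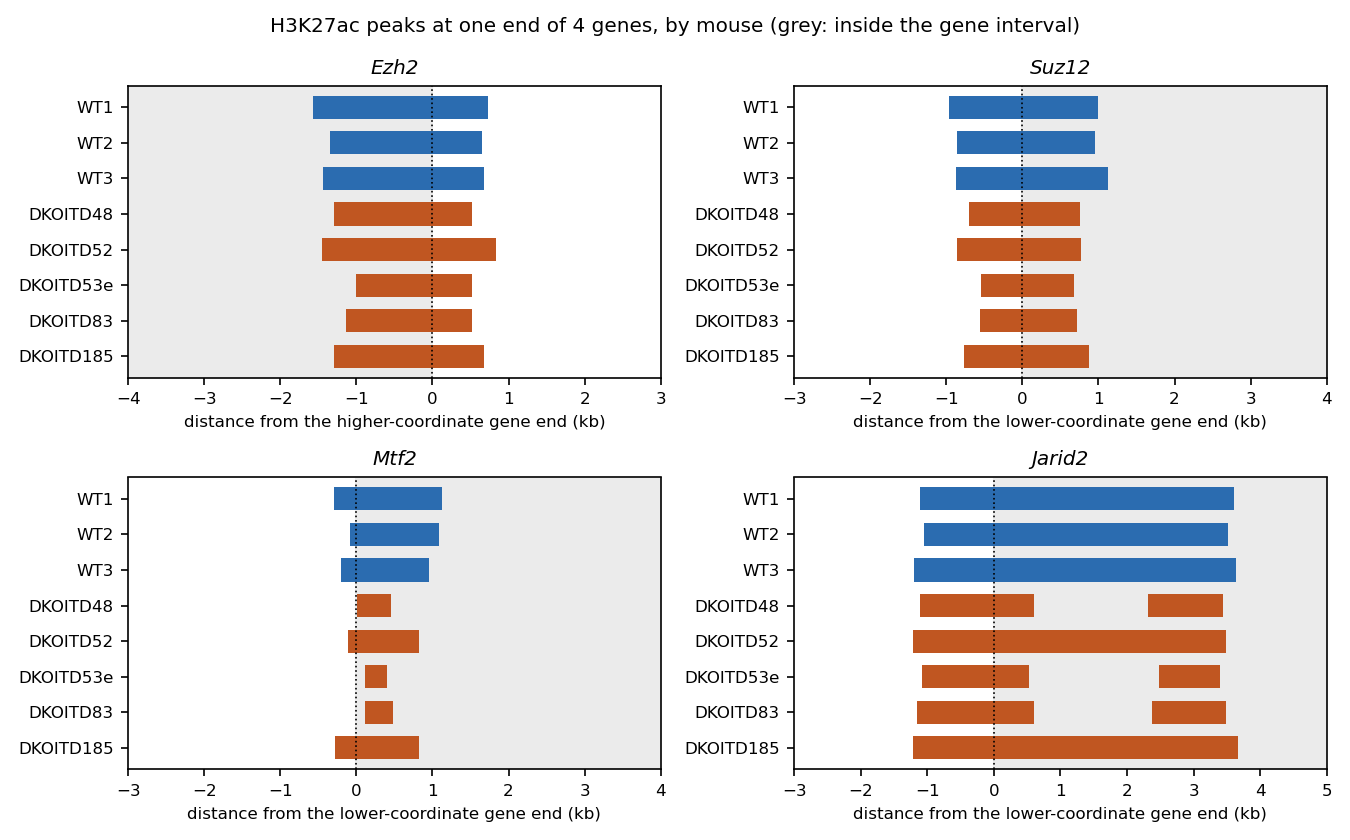
H3K27ac peaks (bars, 1 row per mouse, WT blue and DKOITD orange) at one end of Ezh2, Suz12, Mtf2 and Jarid2, plotted as distance from that gene end in kb, with the inside of the gene in grey. The peaks keep their place and differ in width; at Jarid2 a single domain in 5 mice is 2 separate peaks in DKOITD48, DKOITD53e and DKOITD83.

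Of the accessory pair, Jarid2 (chromosome 13, 44730774 to 44921643) had the broadest single H3K27ac domain of the PRC2 genes. JARID2 belongs to the Jumonji family but has no demethylase activity, and it helps PRC2 to bind nucleosomes. The domain ran from −1.22 to 3.67 kb relative to the lower-coordinate end. It was 1 peak of 4.72, 4.57 and 4.84 kb in WT1 to WT3, and of 4.71 and 4.89 kb in DKOITD52 and DKOITD185. In DKOITD48, DKOITD53e and DKOITD83 it was split into a peak of 1.71, 1.61 and 1.76 kb over the end and one of 1.13, 0.914 and 1.11 kb from 2.32 to 2.49 kb inside. The mice with a split domain are thus the 3 with small peak territories, while DKOITD185 had the widest domain of all.

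Further H3K27ac peaks in the Jarid2 window were called in WT1, WT3 and DKOITD53e. Both WT mice had peaks 36.6 to 37.7 kb and 69.2 to 69.8 kb from the lower end. WT1 had one more inside the gene, 184.0 to 185.4 kb from the lower end, and one beyond its higher end, 195.4 to 195.7 kb from the lower end, where the interval of Dtnbp1 lies. DKOITD53e had a 0.226 kb peak 138.9 to 139.1 kb from the lower end. Total covered length was 7.90, 4.57 and 5.67 kb in WT1 to WT3 and 2.84, 4.71, 2.75, 2.87 and 4.89 kb in the 5 DKOITD mice. WT2 fell below DKOITD52 and DKOITD185, so the groups overlapped, and the difference of −2.44 ± 1.09 kb did not pass the test (adjusted p = 0.211). No other WT mouse fell below them, so leaving WT2 out had to separate the groups. Over all genes, those separated lower for H3K27ac rose from 1852 to 3558 on that omission.

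Jarid2 was also the gene with H3K27me3 in all 8 mice, as a narrow peak 138.8 to 139.2 kb from the lower end. It measured 0.403, 0.274 and 0.347 kb in WT1 to WT3 and 0.249, 0.424, 0.240, 0.259 and 0.279 kb in the 5 DKOITD mice. The median H3K27me3 covered length of genes covered in all 8 libraries was 1.36 to 9.60 kb by mouse, so this is a small site. Its −log10 q nevertheless ran from 7.04 in DKOITD53e to 24.6 in DKOITD52. Whether so short a site reflects the mark was not tested. The H3K27ac peak of DKOITD53e lay within the same stretch, the only place in the 10 genes and 8 mice where peaks of both marks shared bases. That H3K27ac peak had a fold enrichment of only 1.99, and 99.8% of the peaks in its list had a higher one. DKOITD185 had a second H3K27me3 peak of 0.229 kb. Covered length did not differ detectably between genotypes (difference −0.0053 ± 0.243 kb, adjusted p = 1.000), and its sign turned in 6 of the alternative settings.

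Aebp2 (chromosome 6, 140622454 to 140678472), which encodes a zinc finger protein that binds SUZ12, showed the smallest relative difference. H3K27ac covered 2.23, 1.70 and 1.99 kb in WT1 to WT3 and 1.32, 2.21, 1.41, 1.79 and 2.17 kb in the 5 DKOITD mice. The groups overlapped through most of their range, and the difference of −0.19 ± 0.34 kb (adjusted p = 0.743) turned to 0.22 kb without DKOITD48, DKOITD53e and DKOITD83. The peak lay wholly inside the gene, from 0.272 to 2.60 kb past the lower end. No H3K27me3 peak was called.

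Of the Polycomb-like genes, Mtf2 gave the largest difference of the 10 relative to the WT mean. MTF2 binds unmethylated CpG-rich DNA and H3K36me3 and brings PRC2 to its targets. At Mtf2 (chromosome 5, 108065660 to 108109219) H3K27ac covered 1.42, 1.18 and 1.16 kb in WT1 to WT3 and 0.446, 0.930, 0.294, 0.371 and 1.11 kb in the 5 DKOITD mice. All 5 DKOITD mice were lower, but DKOITD185 fell short of WT3 by only 0.05 kb, and the 3 lowest mice are those with the least territory. The difference was −0.62 ± 0.24 kb, with an adjusted p of 0.153 by limma. That p was between 0.0702 and 0.671 over 17 alternatives. In those 3 mice the peak shrank to 0.294 to 0.446 kb just inside the gene end, while in WT mice it reached 0.96 to 1.13 kb inside.

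At Phf19 (chromosome 2, 34893752 to 34914353), whose protein also binds H3K36me3, covered length was 3.86, 2.47 and 1.79 kb in WT1 to WT3. It was 1.25, 4.81, 0.779, 1.11 and 3.56 kb in the 5 DKOITD mice, so DKOITD mice held both the highest and the lowest values. The difference of −0.41 ± 0.98 kb (adjusted p = 0.809) turned to 1.47 kb (adjusted p = 0.472) without the 3 DKOITD mice of least territory. The peak at the higher-coordinate end was alike in all mice, 0.865 to 1.49 kb in WT and 0.779 to 1.47 kb in DKOITD mice. Sites inside the gene varied more. One, 9.29 to 12.0 kb from the lower end, was 1.43, 1.18 and 0.929 kb in WT1 to WT3, 2.64 kb in DKOITD52 and 1.89 kb in DKOITD185, and was not called in DKOITD48, DKOITD53e or DKOITD83. Another, 12.9 to 13.9 kb from the lower end, was 0.946 kb in WT1 and 0.264, 0.700 and 0.317 kb in DKOITD48, DKOITD52 and DKOITD185, and was not called in the other 4 mice. Neither Mtf2 nor Phf19 had an H3K27me3 peak in any mouse.

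Kdm6b (chromosome 11, 69398508 to 69420367) had by far the most H3K27ac of the 10 genes, over 33.6% of its 31.9 kb window in the WT mean and 19.8% in the DKOITD mean. KDM6B, also called JMJD3, removes methyl groups from H3K27 and is induced in activated macrophages and other immune cells. Covered length was 12.0, 9.58 and 10.5 kb in WT1 to WT3 and 6.86, 7.72, 4.20, 4.17 and 8.61 kb in the 5 DKOITD mice. Every WT mouse was above every DKOITD mouse, and the 2 lowest are those of least territory. The difference over the whole window, −4.39 ± 2.17 kb, did not pass the test (adjusted p = 0.247).

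Peaks of the 8 mice merged into 4 separate H3K27ac regions there, and these did not behave alike. The first region, −4.02 to −0.747 kb relative to the lower end, lies over the neighbours Cyb5d1, Naa38 and Tmem88 and not over Kdm6b, and all 8 mice held it at 1.18 to 3.27 kb. A region 9.76 to 13.7 kb inside the gene was also held by all 8. Its peak was 3.98, 3.15 and 3.43 kb wide in WT1 to WT3 and 3.71, 3.48, 2.94, 2.99 and 3.65 kb in the 5 DKOITD mice. That peak was among the longest 0.714% to 3.30% of each mouse's list, and the groups overlapped (difference −0.17 ± 0.43 kb, adjusted p = 0.818). By fold enrichment it stood within the highest 10.6% to 16.2% of its list in WT mice and the highest 0.507% to 9.86% in DKOITD mice.

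The third region, 14.9 to 17.9 kb from the lower end (mm10 chromosome 11, 69413456 to 69416417), lies inside Kdm6b and partly over the noncoding gene Gm51903. It carried H3K27ac peaks of 2.59, 2.25 and 2.82 kb in WT1 to WT3 and none in the 5 DKOITD mice. The region test listed it as lower (difference −2.55 kb), as it did 12.8% of the 16392 regions tested. Since only WT libraries brought it through the filter of 3 covered libraries, it had to differ, and its p-value is not given. Of 15 regions of these genes that could be tested it was the only one called, and none was called higher (0.958% of all regions tested). Loss in all 5 DKOITD mice befell 1 of the 14 regions of these genes that all 3 WT mice held, and 8.95% of 11957 such regions genome-wide. The WT peaks were weak, with −log10 q values of 4.76, 2.70 and 4.06, so none remained when a value of at least 5 was required. With an equal number of peaks taken from each list, 2 of the 3 WT mice held the region and no DKOITD mouse did. It accounted for 58.2% of the difference over the Kdm6b window.

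The fourth region, 19.1 to 21.4 kb from the lower end, was held by all 3 WT mice at 1.90 to 2.23 kb and by DKOITD48, DKOITD52 and DKOITD185 at 1.38, 1.83 and 2.23 kb. DKOITD53e and DKOITD83 had no peak there, and its difference of −1.01 ± 0.54 kb did not pass the test (adjusted p = 0.257).

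H3K27me3 lay just beyond this last region, 21.5 to 23.9 kb from the lower end. There it was over the lower-coordinate end of the interval of Dnah2, which encodes an axonemal dynein. The mark reached 0.105 and 0.396 kb into Kdm6b in WT1 and WT3. In WT2, DKOITD52 and DKOITD185 it began 0.721, 0.331 and 0.785 kb beyond the gene. It covered 1.30, 1.19 and 1.62 kb in WT1 to WT3, 1.72 kb in DKOITD52 and 0.309 kb in DKOITD185, and was not called in DKOITD48, DKOITD53e or DKOITD83. Every WT mouse was below DKOITD52 and above the other DKOITD mice, so the groups overlapped (difference −0.97 ± 0.52 kb, adjusted p = 0.838). The mice without a peak are again the 3 whose H3K27me3 territory was 3.17 to 5.24 Mb. Without them the difference was −0.36 kb. In no mouse did the H3K27ac and H3K27me3 peaks at Kdm6b share bases.

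**Figure D4:**
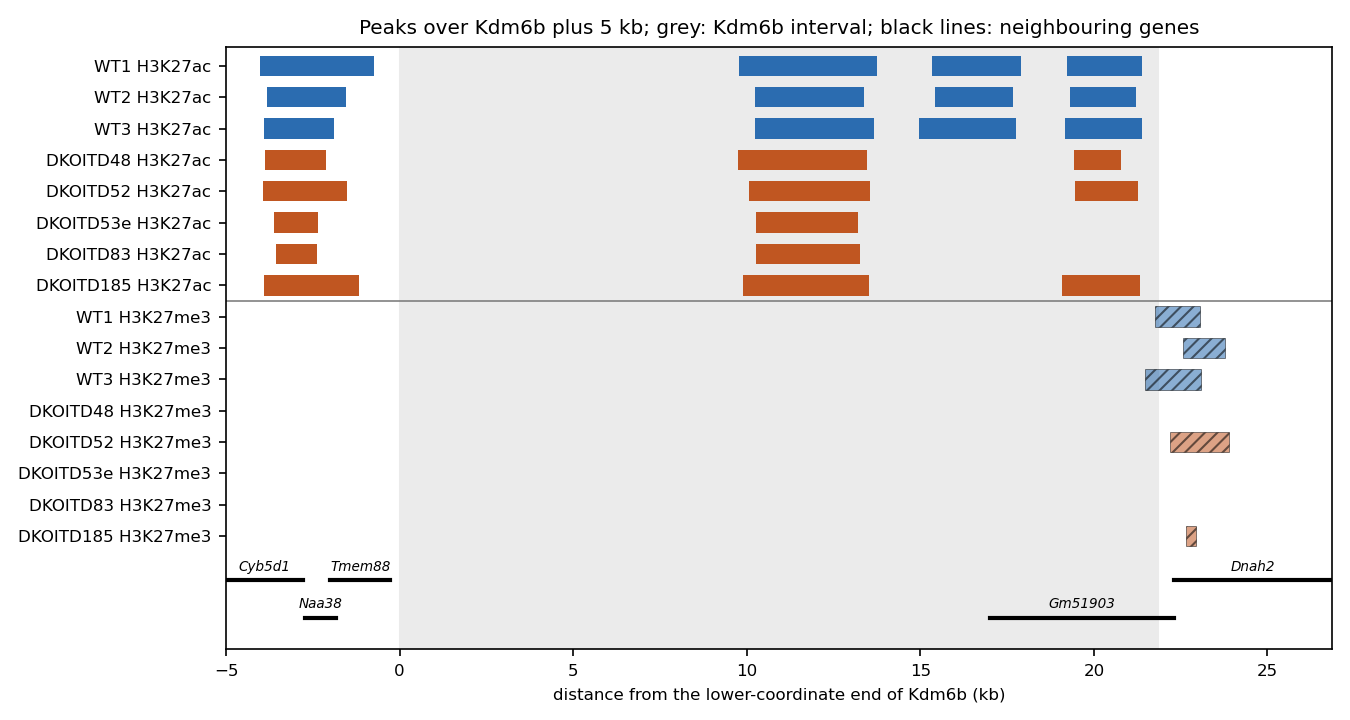
Peaks over the Kdm6b window (kb from the lower-coordinate end of the gene), 1 row per mouse, with H3K27ac in the upper 8 rows and H3K27me3, hatched, in the lower 8; WT is blue, DKOITD orange, the gene is grey and black lines are neighbouring genes. The H3K27ac peaks between 14.9 and 17.9 kb are present in the 3 WT mice only, while those between 9.76 and 13.7 kb are present in all 8.

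Over both marks, 11 of the 22 merged H3K27ac regions of the 10 genes were held by all 8 mice (20.5% of all H3K27ac regions) and 5 were found in 1 library only. For H3K27me3, 1 of 8 regions was held by all 8 (2.85% of all such regions) and 6 were found in 1 library. No gene passed the H3K27me3 test genome-wide (0% of 5758 tested by limma; 412 genes, or 7.16%, had an unadjusted p under 0.05), and of the 10 genes only Jarid2 and Kdm6b were covered in enough libraries to be tested. Neither separated the groups, as 5.09% of the genes tested did lower and 0.104% higher in DKOITD mice, and none of the 10 lost (0.512% of all genes) or gained (0.0183%) the mark throughout. Per mouse, H3K27me3 was on 3, 2 and 4 of the 10 genes in WT1 to WT3 and on 1, 2, 1, 1 and 2 in the 5 DKOITD mice. The number was lowest in the mice in which fewest genes of any kind carried the mark, 6.82% to 11.0% against 21.8% to 29.5% in the other 5.

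Of 7 further PRC2 and H3K27 demethylase genes (Rbbp4, Phf1, Epop, Lcor, Lcorl, Ezhip and Kdm6a), 6 could be tested for H3K27ac; 1 was called higher in DKOITD mice and none lower, and their median difference was −0.42 kb against −0.38 kb over all genes tested. The call was Epop, which encodes an elongin-binding subunit of the Polycomb-like form of PRC2. Epop had no H3K27ac peak in WT1 to WT3 and peaks of 0.651, 0.541, 0.355, 0.531 and 0.617 kb in the 5 DKOITD mice, all at the higher-coordinate end of the gene. Such a gain in all 5 DKOITD mice was found at 79 of the 21887 genes. The difference was 0.54 ± 0.12 kb (adjusted p = 0.0361, with 0.384% of genes called higher). Like the Kdm6b region, Epop passed the filter through 1 group only and had to differ, so the call does not support a difference, and every WT H3K27ac library was the smaller. The call was lost in 7 of 16 alternatives, 6 of them the omission of 1 mouse, where the adjusted p ran from 0.0428 to 0.142. With peaks of a −log10 q of at least 5 it was 0.373. The mice whose omission ended it were WT1, WT2, WT3, DKOITD48, DKOITD52 and DKOITD83.

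Epop was also the only one of those 7 genes with H3K27me3, over 6.80, 4.95 and 8.16 kb of its window in WT1 to WT3 and over 0, 8.52, 0, 1.78 and 4.54 kb in the 5 DKOITD mice (adjusted p = 0.890). In DKOITD52, DKOITD83 and DKOITD185 peaks of both marks shared 0.541, 0.254 and 0.617 kb. Whether the marks were in the same cells cannot be read from bulk marrow. Kdm6a, the X-linked second H3K27 demethylase, and Lcorl, a PRC2 accessory gene, had H3K27ac lengths that separated the groups, both lower in DKOITD mice without passing the test. Kdm6a covered 2.84 ± 0.34 kb in WT and 2.10 ± 0.27 kb in DKOITD mice (adjusted p = 0.258), and Lcorl 2.08 ± 0.13 kb and 1.66 ± 0.24 kb (adjusted p = 0.373). The groups also differed in the chromosome X and Y values given with Rbbp7. The part of these in the lower Kdm6a length was not tested.

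Of 7 genes for H3K27 acetylation and its removal, each carried H3K27ac in all 8 mice and none was called. Crebbp, an H3K27 acetyltransferase, was the one whose groups separated, at 3.56 ± 0.28 kb in WT and 2.58 ± 0.30 kb in DKOITD mice (adjusted p = 0.233). Of 11 trithorax genes and Polycomb antagonists, all carried H3K27ac in all 8 mice, 2 were called lower and none higher, against 5.39% lower among all genes tested. The list's median difference was −0.80 kb.

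Smarca4, the ATPase of the SWI/SNF remodeller that opposes Polycomb, covered 3.71, 3.01 and 2.74 kb in WT1 to WT3 and 1.27, 1.30, 0.994, 1.01 and 1.38 kb in the 5 DKOITD mice. The lowest WT mouse was well above the highest DKOITD mouse (difference −1.96 ± 0.33 kb, adjusted p = 0.0122), and the call held in 12 of 17 alternatives, among them the omission of each mouse. Without DKOITD48, DKOITD53e and DKOITD83 the adjusted p was 0.125. The call also ended with 2 kb windows at the gene ends, peaks of −log10 q of at least 5, an equal number of peaks and the widest peak. In each of these the difference fell to −0.87 kb, with limma adjusted p from 0.0699 to 0.218. Asxl1, a partner of the H2A deubiquitinase BAP1, covered 7.09, 3.59 and 5.42 kb in WT1 to WT3 and 1.16, 2.95, 0.742, 0.852 and 2.65 kb in the 5 DKOITD mice (difference −3.70 ± 0.89 kb, adjusted p = 0.0435). Its call held in 7 of 17 alternatives and ended on omission of WT1, WT3, DKOITD48, DKOITD53e or DKOITD83. It also ended with the gene-end windows, peaks of −log10 q of at least 5, the widest peak and the log2 scale, and without DKOITD48, DKOITD53e and DKOITD83 together.

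Among the engineered genes, Runx1 and Flt3 carried H3K27ac in all 8 mice and Rag1 in none. Runx1 ranged from 19.7 to 31.7 kb in WT mice and from 2.09 to 29.6 kb in DKOITD mice (adjusted p = 0.321), and Flt3 from 2.32 to 5.02 kb and from 0.649 to 16.6 kb (adjusted p = 0.589).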

How the data were processed

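The 10 genes and the other gene lists were chosen with earlier results of these data known. Per the submitters' processing notes, Bowtie2 2.2.5, MACS2 2.0.10 and the build mm10 were used. Each library was called on its own for broad peaks by MACS 2.0.10.20131216, per the file headers, with a q-value cutoff of 0.05 and at most 1 fragment per position, against the input of WT1 for WT mice and of DKOITD48 for DKOITD mice. Per the labels, Drosophila chromatin was added as a spike-in but not used, so peaks carry no absolute level. The deposited files list each peak's coordinates and length with its pileup signal, the −log10 of its p-value and q-value, and its fold enrichment, a ratio to local background, all by MACS. These values ranked or filtered peaks within a list only. An absent peak is not absence of the mark.

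Gene intervals came from RefSeq (GRCm38.p6), which matched all 10 symbols. That table gives no strand or exons, so positions are measured from the lower- or higher-coordinate gene end, and the planned use of the gene start was replaced by both ends. Bases under peaks in the interval plus 5 kb were summed per mouse with Python 3.11.15. Genes covered in at least 3 of 8 libraries of a mark were tested with limma 3.58.1 (eBayes with trend) in R 4.3.3, DKOITD minus WT, with Benjamini-Hochberg adjustment over all of them at 0.05. The script was tested on simulated data. The fit over merged peak regions was added after seeing the data. A gene or region was marked, or held, when at least 200 bp were covered. All genes of the fixed lists were counted, and of the other Polycomb, acetylation and trithorax lists those called or separated were named. Cell type marker lists had been set the same way. Mice carry their own labels and served as replicates. Alternatives were a 1 kb flank, 2 kb windows at the gene ends, peaks with a −log10 q of at least 5, an equal number of peaks per list, the widest peak, a log2 scale with a pseudocount of 200 bp, no filter, peak territory as a covariate, marked thresholds of 1 and 500 bp, and omission of mice. Human cell lines and inputs were not used here.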

Additional observations from a re-analysis of the deposited data

Results flagged for a closer look

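Among 12 groups of 5 DKOITD values examined, 1 had a mouse far from the rest, and chance alone gives about 1 in 20. It was the H3K27me3 covered length at Kdm6b, where DKOITD52 had 1.72 kb, DKOITD185 0.309 kb and the other 3 mice 0. The gap between the highest mouse and the next took up 0.82 of the whole range, above Dixon's critical value of 0.71 for 5 values. Dixon's value assumes a normal spread, which the 0 values of uncalled peaks do not have. The H3K27me3 territory of DKOITD52 was 30.3 Mb, against 40.5 Mb in DKOITD185. No other DKOITD mouse reached the WT range at this gene, so leaving DKOITD52 out had to separate the groups. Over all genes, those separated lower for H3K27me3 rose from 293 to 604 on that omission.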

How the results depend on the processing

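No paired analysis was possible because WT and DKOITD mice share no replicate number. Of the 10 genes, none passed the limma test for either mark under any alternative run. For H3K27ac 163 of 170 values kept their direction, with adjusted p from 0.0658 to 0.990. Those that turned were Ezh1 with peaks of −log10 q of at least 5 (0.060 kb); Phf19 by widest peak (0.24 kb), with territory as covariate (1.10 kb), without WT1 (0.17 kb, against −1.04 kb without DKOITD52) and without DKOITD48, DKOITD53e and DKOITD83 (1.47 kb); and Aebp2 with the covariate (0.12 kb) and without those 3 mice (0.22 kb). For H3K27me3, 25 of 31 values kept it; Jarid2 turned with the covariate (0.069 kb), without WT1 (0.026 kb), DKOITD48 (0.016 kb), DKOITD53e (0.019 kb) or DKOITD83 (0.014 kb, against −0.048 kb without DKOITD185), and without the 3 mice (0.125 kb). The genome-wide backgrounds moved more. The 692 genes called for H3K27ac became 438 with windows at the gene ends, 87 with strict peaks, 1329 with the covariate (526 lower and 803 higher, against 646 and 46) and 87 without the 3 mice (9 lower and 78 higher), and ranged from 199 to 1120 on omission of 1 mouse. Calls for H3K27me3 rose from 0 to 632 with the covariate and 65 without the 3 mice. Omission of 1 mouse gave 133 to 244 H3K27ac losses and 79 to 140 gains, and 112 to 315 and 4 to 7 for H3K27me3. Separated genes then numbered 1793 to 3558 lower and 217 to 371 higher for H3K27ac, and 219 to 641 and 6 to 17 for H3K27me3. Of the 10 genes, 4 to 6 were then separated lower for H3K27ac (Ezh2 and Jarid2 joined without WT2) and 0 to 1 for H3K27me3 (Kdm6b without DKOITD52). Without the 3 mice, gains were 412 for H3K27ac and 314 for H3K27me3, and genes separated higher were 2010 and 2189, of the 10 genes 1 for H3K27me3 (Jarid2). The cause of these shifts was not tested. With no read counts in the peak lists, what depth limits at a single site was not tested.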
